A study of Mus musculus with 12 samples.

Results

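The 10 genes described here are Trp53, which encodes the transcription factor p53, 6 genes that p53 is known to activate (Cdkn1a, Mdm2, Ccng1, Trp53inp1, Phlda3 and Bbc3) and 3 further genes for inhibitors of cyclin-dependent kinases (Cdkn1b, Cdkn2c and Cdkn2d). They were chosen by name, with earlier results of these data known, and all 10 were found by symbol among the 33696 genes of the files. All 10 passed the filter on low counts in every comparison. Their levels were compared between γδ T cells and thymic precursors of mice labelled WT or Gfi1 KO.

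p53 is held at a low level by MDM2, a ubiquitin ligase that p53 itself induces, and DNA damage or oncogenic stress releases it to activate genes for cell cycle arrest, repair and apoptosis. The CIP/KIP inhibitors p21 (Cdkn1a) and p27 (Cdkn1b) bind cyclin-CDK complexes, and the INK4 inhibitors p18 (Cdkn2c) and p19INK4d (Cdkn2d) bind CDK4 and CDK6. In the thymus, DN3 cells rearrange their T cell receptor β genes and make Ptcra, the invariant chain of the pre-T cell receptor, and they pause in the cell cycle until that receptor signals. GFI1 is a DNA-binding repressor of transcription in blood cells.

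Transcripts were counted with 10x Genomics 3′ chemistry in 12 demultiplexed libraries from adult mice on the C57BL6/J background, which were either WT or germline Gfi1 KO. The 3 compartments were splenic γδ T cells sorted as CD3+ and CD4-negative, thymic γδ T cells sorted as CD4- and CD8-negative, and DN1-DN3 cells, the earliest CD4- and CD8-negative thymocytes sorted together, with 2 libraries per genotype in each. B, myeloid and NK cells had been depleted by magnet before the sort, and CD8+ cells in part from the thymus. Cells of both genotypes carried different hashtag antibodies and shared a droplet run, so that each of the 6 pools gave 1 library labelled WT and 1 labelled KO. The exact age, the sex and the number of animals behind a library are not given in the sources used here, and p-values measure only the spread between these libraries, which may be technical.

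The libraries held 6795 to 11679 cells after filtering, with a median of 4947 to 6853 UMIs per cell. Libraries of the same pool shared 0 cell barcodes, which shows only the split by hashtag. The 60 other pairs of libraries shared 5 to 34, at most 0.499% of the smaller library. Gfi1 itself was not lower in any KO library than in the WT library of its pool, with 11.8 to 18.0 CPM (counts per 1e+06 UMIs) in spleen labelled WT and 18.1 CPM in both libraries labelled KO, so genotypes are given below as labelled. The deleted part of Gfi1 is not given in the sources used here, and a 3′ tag outside it would check nothing. The summed CPM of 5 γδ T cell markers lay between 3496 and 6954 in the sorted γδ T cells and between 3372 and 3653 in DN1-DN3 cells, so that these markers did not separate DN1-DN3 cells from γδ T cells labelled WT (3496 to 3905). That of 8 DN markers lay between 1618 and 2217 in DN1-DN3 cells against 120 to 299 in the γδ T cells. In DN1-DN3 cells, B cell markers summed to 165 to 309 CPM with the label WT and 1741 to 3787 CPM with the label KO, and Il2rb was counted, without thinning, in 3.799% to 3.996% and 14.6% to 27.2% of cells. Ddx3y, a transcript of the Y chromosome, was also lower in these cells with the label KO (11.6 to 14.2 CPM) than with the label WT (26.0 to 28.0 CPM). Xist, which the inactive X chromosome of females transcribes, stood at 0.374 CPM or less in every splenic library and at 739 to 1600 CPM in every thymic one, and Ddx3y at 82.2 to 100.3 CPM in spleen and 35.8 CPM or less in thymus. Every thymic library thus held RNA of both sexes, with 11.6 to 35.8 CPM of Ddx3y beside Xist. Between spleen and thymus, tissue and the sex of the animals therefore cannot be told apart. Within DN1-DN3 cells the mix of sexes may also differ with the label, and its part in the results was not tested. Spleen libraries labelled WT had 142 to 166 CPM of NK cell markers against 13.4 to 14.3 CPM with the label KO, and WT replicate 1 had 1989 CPM of B cell markers against 72.7 to 396 CPM in the other splenic libraries. Markers of αβ T cells summed to 1745 to 1806 CPM with the label WT and 993 to 1031 CPM with the label KO in spleen, and to 3175 to 3262 and 1303 to 1531 CPM in thymic γδ T cells. Summed myeloid markers stood at 91.6 to 106 and 313 to 338 CPM in spleen and at 90.2 to 96.5 and 175 to 186 CPM in thymic γδ T cells, but only 1 of 5 tested was higher in each, and 1 was lower in the latter (median log2 differences −0.77 and −0.48), and 4 to 5 of the 6 were under 1 CPM in every library. Erythroid markers stood at 38.8 to 44.0 CPM labelled WT and 75.0 to 167 CPM labelled KO in spleen, and NK cell markers at 7.34 to 9.45 and 17.7 to 30.3 CPM in DN1-DN3 cells, with 3 of 5 higher in each. The part of these differences in the results below was not tested except where stated, and within a compartment fewer cells of a type and less RNA per cell cannot be told apart.

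Across the 3 compartments the genes did not move as a block. Cdkn1a and Phlda3 fell in DN1-DN3 cells labelled KO and rose in both kinds of γδ T cell labelled KO. Cdkn2c and Cdkn2d rose in spleen and fell in thymic γδ T cells, and Trp53inp1 fell in both γδ T compartments while Ccng1 rose there. Several of these calls, among them all 3 falls in thymic γδ T cells, were lost under some alternatives given below. Cdkn2c turned to a rise there once cells with cycling markers were left out. In spleen, 6 of 10 genes rose and 2 fell by edgeR's quasi-likelihood test at an adjusted p below 0.05, where 54.7% of all 14921 genes tested were called (28.6% higher and 26.1% lower). In thymic γδ T cells 5 rose and 3 fell, where 49.7% of all genes were called (26.1% higher and 23.7% lower). Only 1 rose and 2 fell in DN1-DN3 cells, where 23% of all genes were called (15.2% higher and 7.73% lower). The median log2 difference (KO minus WT) of the 10 genes was 0.51 in spleen, 0.28 in thymic γδ T cells and 0.01 in DN1-DN3 cells, beside 0.00 in spleen, −0.00 in thymic γδ T cells and −0.02 in DN1-DN3 cells over all genes tested. The libraries of both labels did not overlap for 9 of the genes in spleen, 10 in thymic γδ T cells and 4 in DN1-DN3 cells, as they did not for 76.5%, 78.3% and 57.2% of all 18385 genes with at least 50 UMIs.

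**Figure D1:**
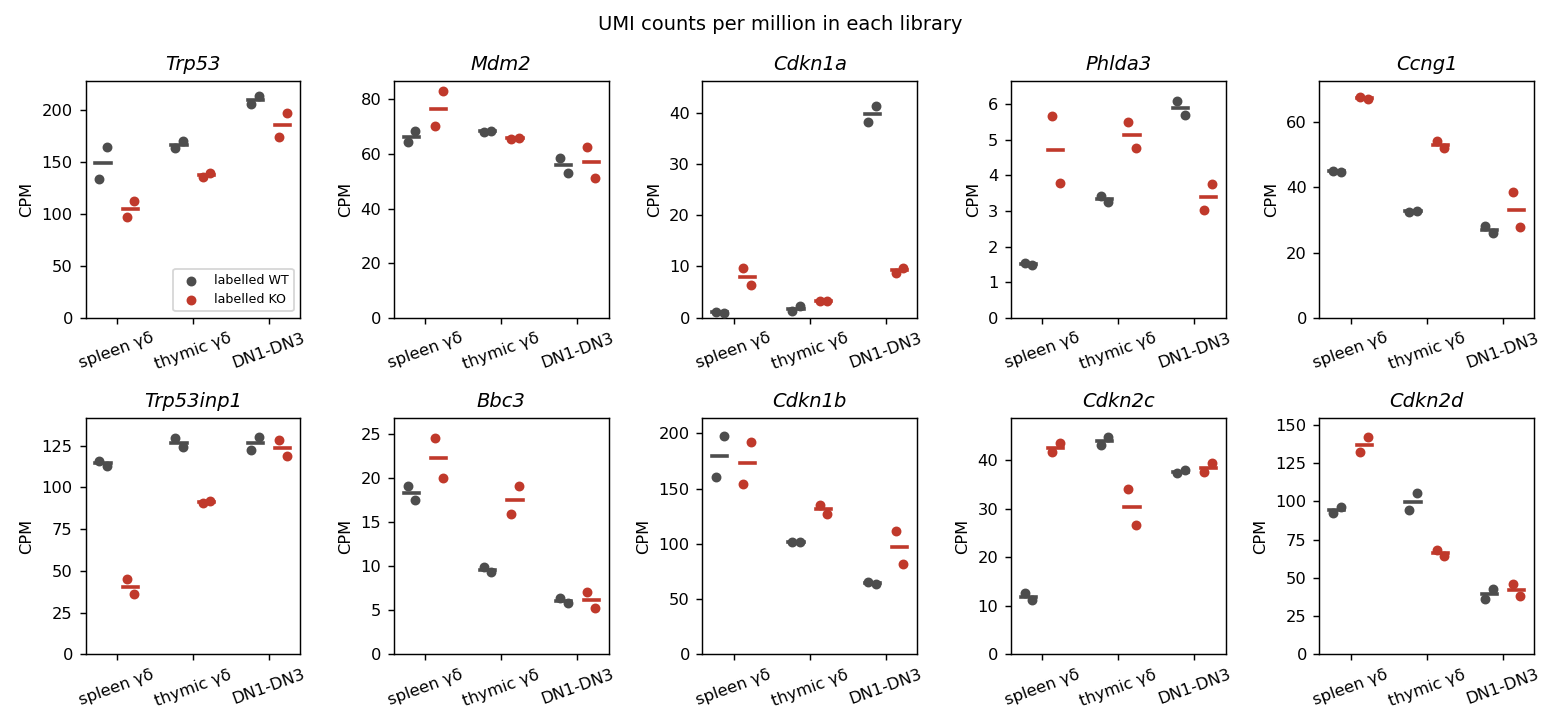
Each panel plots 1 gene, with CPM on the vertical axis from 0 and the 3 compartments on the horizontal axis; points are libraries, bars are the means of 2 libraries, grey is labelled WT and red labelled KO. Cdkn1a stood at 38.2 and 41.3 CPM in DN1-DN3 cells labelled WT and at 9.77 CPM or less in all other libraries.

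Trp53 (ENSMUSG00000059552) was counted in every library. It stood at 134 and 164 CPM in spleen labelled WT against 97.6 and 112 CPM labelled KO, and the groups did not overlap. The values in thymic γδ T cells were 163 and 171 CPM labelled WT and 135 and 139 CPM labelled KO, and in DN1-DN3 cells 206 and 214 CPM against 174 and 197 CPM. The libraries labelled KO were thus below those labelled WT in all 3 compartments, but only the splenic difference was called (log2 difference −0.41, SE 0.13, edgeR adjusted p = 0.0202). That call was lost without WT replicate 2 or without KO replicate 1 (adjusted p = 0.108 and 0.122). The thymic γδ T cell value was −0.16 (SE 0.13, edgeR adjusted p = 0.331). The DN1-DN3 value was −0.18 (SE 0.13, edgeR adjusted p = 0.357).

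Mdm2 (ENSMUSG00000020184), the p53 target that limits p53, differed little between groups. Its levels ran from 51.3 CPM in a DN1-DN3 library labelled KO to 82.9 CPM in a splenic library labelled KO. In spleen the log2 difference was 0.30 (SE 0.09, edgeR adjusted p = 0.0176), with 64.2 and 68.3 CPM labelled WT and 70.2 and 82.9 CPM labelled KO, and the call was lost in 3 of the 4 fits that left out 1 library. In thymic γδ T cells it stood at 68.1 and 68.5 CPM labelled WT and 65.5 and 66.0 CPM labelled KO, without overlap, while the log2 difference after TMM scaling was 0.07 (SE 0.09, edgeR adjusted p = 0.570), of the opposite sign. In DN1-DN3 cells the groups overlapped, and the log2 difference was 0.02 (SE 0.09, edgeR adjusted p = 0.873).

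Cdkn1a (ENSMUSG00000023067), the gene for p21, differed most. In DN1-DN3 cells the level was 38.2 and 41.3 CPM with the label WT against 8.72 and 9.77 CPM with the label KO, which is 4.30-fold lower on the means of 39.7 ± 2.23 and 9.25 ± 0.744 CPM (SD, n = 2). In spleen the order was the opposite, with 1.19 and 0.857 CPM labelled WT (50 and 51 UMIs) and 9.70 and 6.37 CPM labelled KO (454 and 443 UMIs). Thymic γδ T cells had 1.29 and 2.26 CPM labelled WT (76 and 162 UMIs) and 3.35 CPM in both libraries labelled KO (142 and 152 UMIs). The groups did not overlap in any compartment. The log2 difference (KO minus WT) was −2.10 in DN1-DN3 cells (SE 0.26, edgeR adjusted p = 0.000526), 3.09 in spleen (SE 0.31, edgeR adjusted p = 2.27e-05) and 1.03 in thymic γδ T cells (SE 0.29, edgeR adjusted p = 0.0150). The fall in DN1-DN3 cells passed under all 12 alternatives, and the rise in thymic γδ T cells was lost without WT replicate 1 or KO replicate 2 (adjusted p = 0.0973 and 0.0726). Both rises in γδ T cells were also lost among cells whose leading Trgv gene was Trgv6, few of which were labelled WT. The effect in DN1-DN3 cells differed from that in thymic γδ T cells by −3.13 on the log2 scale (SE 0.39, edgeR adjusted p = 0.000760), and the splenic effect exceeded the thymic one by 2.06 (SE 0.42, edgeR adjusted p = 0.00604). Among cells without a UMI of the cycling markers described below, the log2 differences were 2.91 in spleen and 2.88 in thymic γδ T cells. The interaction was not tested in those cells.

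A Cdkn1a UMI was also found in a smaller share of DN1-DN3 cells labelled KO. With every cell thinned to 2000 UMIs, 8.71% and 9.43% of cells labelled WT and 1.68% and 2.00% of those labelled KO carried one, and without thinning 20.1% and 21.95% against 4.36% and 5.48%. A permutation test over the libraries (exact, two-sided) cannot go below p = 0.33 with 2 in each group, and it gave that value. In thinned splenic cells the shares were 0.152% and 0.150% labelled WT and 1.22% and 0.958% labelled KO, and in thinned thymic γδ T cells 0.158% and 0.213% against 0.538% and 0.531%. Without thinning they were 0.460% and 0.269% against 3.28% and 2.29% in spleen. In thymic γδ T cells they then overlapped, at 0.763% and 1.39% labelled WT and 1.16% and 1.43% labelled KO. Cells with 3 or more Cdkn1a UMIs were few there, 5 and 8 labelled WT and 13 and 11 labelled KO. No cell type that must lack Cdkn1a was available as a measure of free RNA, and shares under 1% may lie near it. Among WT cells the order of Cdkn1a levels was DN1-DN3 above thymic γδ T cells (thymic γδ T cells minus DN1-DN3 −4.45, SE 0.30, edgeR adjusted p = 4.13e-06), while thymic and splenic γδ T cells did not pass the test (spleen minus thymic γδ T cells −0.75, SE 0.32, edgeR adjusted p = 0.0813).

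RefSeq lists a Cdkn1a start 2790 bases upstream of the most downstream one, and its promoter is shown because it was the sole member window with a full p53 site. Promoter windows ran from 250 bases before to 50 bases after a start in build GRCm38.p6, while the deposited counts were made with GRCm39, so no coordinate is shared between them. Of the 10 genes, 9 had windows, 13 in all, and Trp53inp1 had none. The letters of the p53 response element decamer were found in 5 of the 13 windows and in 8.36% of all 32851 windows, on both strands at once because the decamer reads the same on each. A full site of 2 decamers up to 13 bases apart was found in 0.0731% of all windows, and 2 adjoining decamers with at most 1 mismatch in 0.0883%, among these genes in Cdkn1a and Ccng1. The stretches below are given 5′ to 3′ on the strand of the gene, and capitals mark every decamer and every adjoining pair. The third, from the Mdm2 promoter, holds a single decamer. So do the windows of Cdkn2d and Trp53 that had one, which are not printed and are not of p53 targets in the set.
Cdkn1a, chr17:29090829-29090978 (+), ending at the base before the upstream start: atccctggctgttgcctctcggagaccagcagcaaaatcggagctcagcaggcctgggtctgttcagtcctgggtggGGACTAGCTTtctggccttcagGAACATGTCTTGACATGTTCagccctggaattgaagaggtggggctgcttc
Ccng1, chr11:40755442-40755491 (−): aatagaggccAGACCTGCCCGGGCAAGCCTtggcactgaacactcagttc
Mdm2, chr10:117710915-117710964 (−): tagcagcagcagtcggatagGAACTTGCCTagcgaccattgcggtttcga
The tetramer AATC, the core of the GFI1 site, was in 8 of the 13 windows and in 73.1% of all windows, and the FOXO heptamer GTAAACA in 2 of 13 and in 3.65% of all. The E2F octamers TTTCCCGC and TTTGGCGC were in 0 of 13 windows and in 1.07% and 0.514% of all. Both strands were searched, a match is not a bound site, and no match says only that these letters are not in this window.

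Among the other p53 targets of the set, Phlda3 (ENSMUSG00000041801), whose product restrains AKT at the membrane, moved the same way as Cdkn1a in each compartment. It stood at 6.10 and 5.70 CPM in DN1-DN3 cells labelled WT and at 3.02 and 3.77 CPM labelled KO. In spleen it stood at 1.54 and 1.48 CPM against 5.66 and 3.798 CPM, and in thymic γδ T cells at 3.43 and 3.27 CPM against 5.50 and 4.78 CPM. The groups did not overlap in any compartment. The log2 difference was −0.79 in DN1-DN3 cells (SE 0.21, edgeR adjusted p = 0.0250), 1.74 in spleen (SE 0.23, edgeR adjusted p = 0.000113) and 0.74 in thymic γδ T cells (SE 0.22, edgeR adjusted p = 0.0158). The call in DN1-DN3 cells was lost in 5 of 12 alternatives, among them leaving out cells with a UMI of Cd79a or Il2rb (log2 difference −0.70, adjusted p = 0.0523), and that in thymic γδ T cells in 3 of the 4 fits that left out 1 library. Among cells whose leading Trgv gene was Trgv6 the splenic call was lost (log2 difference 0.11, edgeR adjusted p = 0.934).

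Ccng1 (ENSMUSG00000020326), the gene for cyclin G1, which acts with a phosphatase on MDM2, rose in both γδ T compartments labelled KO. It went from 45.1 and 44.7 CPM to 67.6 and 67.0 CPM in spleen (log2 difference 0.68, SE 0.10, edgeR adjusted p = 0.000282). The thymic γδ T cell levels went from 32.5 and 32.9 CPM to 54.1 and 52.0 CPM (log2 difference 0.82, SE 0.10, edgeR adjusted p = 0.000113). The groups did not overlap in either compartment, and each call held without any 1 library. Both were lost among cells whose leading Trgv gene was Trgv6, where the log2 difference was 0.13 in spleen and 0.80 in thymic γδ T cells (edgeR adjusted p = 0.667 and 0.0692). In DN1-DN3 cells the groups overlapped at 28.0 and 26.0 CPM labelled WT and 38.5 and 27.8 CPM labelled KO (log2 difference 0.29, SE 0.10, edgeR adjusted p = 0.0705).

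Trp53inp1 (ENSMUSG00000028211), which encodes a stress protein of autophagy and cell death, went the other way. In spleen it fell from 116 and 113 CPM labelled WT to 44.9 and 36.2 CPM labelled KO, 2.82-fold lower on the means (log2 difference −1.40, SE 0.12, edgeR adjusted p = 5.73e-06). It was the sole gene of the set that kept its call in spleen among cells whose leading Trgv gene was Trgv6. It also fell in thymic γδ T cells, from 130 and 124 CPM to 90.5 and 91.9 CPM (log2 difference −0.35, SE 0.11, edgeR adjusted p = 0.0266), a call lost in each of the 4 fits that left out 1 library. DN1-DN3 libraries overlapped, between 119 and 130 CPM (log2 difference −0.03, SE 0.11, edgeR adjusted p = 0.858). The splenic effect was 1.05 the larger in size (interaction −1.05, SE 0.16, edgeR adjusted p = 0.00127).

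Bbc3 (ENSMUSG00000002083), the gene for the pro-apoptotic protein PUMA, rose in thymic γδ T cells labelled KO, from 9.93 and 9.29 CPM to 16.0 and 19.1 CPM (log2 difference 0.99, SE 0.16, edgeR adjusted p = 0.000499). Bbc3 lost that call among cells without the cycling markers described below (0.39, edgeR adjusted p = 0.0888). It also lost it among cells whose leading Trgv gene was Trgv6, where its UMIs were few. In spleen it stood at 19.1 and 17.5 CPM labelled WT and 24.5 and 20.01 CPM labelled KO, without overlap, and did not pass (log2 difference 0.38, SE 0.15, edgeR adjusted p = 0.0585), while with the pool as a replicate block the adjusted p was 0.0478. DN1-DN3 libraries overlapped between 5.23 and 7.05 CPM (log2 difference −0.00, SE 0.16, edgeR adjusted p = 0.998). The effect in DN1-DN3 cells lay below that in thymic γδ T cells, at −0.996 (SE 0.23, edgeR adjusted p = 0.0118).

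Of the CDK inhibitors outside the p53 targets, Cdkn2c (ENSMUSG00000028551) differed most in spleen. There it stood at 12.7 and 11.1 CPM labelled WT and at 41.6 and 43.5 CPM labelled KO, 3.58-fold higher on the means (log2 difference 1.94, SE 0.11, edgeR adjusted p = 5.95e-07). In thymic γδ T cells it was lower with the label KO, at 34.0 and 26.5 CPM against 43.0 and 44.7 CPM (log2 difference −0.42, SE 0.11, edgeR adjusted p = 0.00920), a call lost without WT replicate 2 or KO replicate 2 (adjusted p = 0.0609 and 0.0870). The 4 DN1-DN3 libraries lay between 37.3 and 39.5 CPM and overlapped (log2 difference 0.03, SE 0.11, edgeR adjusted p = 0.854). The effects in spleen and thymic γδ T cells were 2.36 apart (SE 0.16, edgeR adjusted p = 1.55e-05).

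Cdkn2d (ENSMUSG00000096472) followed the same order. It rose in spleen from 92.2 and 96.0 CPM to 132 and 142 CPM (log2 difference 0.64, SE 0.11, edgeR adjusted p = 0.000772) and fell in thymic γδ T cells from 94.4 and 105 CPM to 68.3 and 64.2 CPM (log2 difference −0.47, SE 0.11, edgeR adjusted p = 0.00555), the latter call lost without WT replicate 2 (adjusted p = 0.0544). DN1-DN3 libraries overlapped between 36.3 and 45.9 CPM (log2 difference 0.07, SE 0.11, edgeR adjusted p = 0.672). Spleen and thymic γδ T cells differed in effect by 1.11 (SE 0.16, edgeR adjusted p = 0.000791), and DN1-DN3 and thymic γδ T cells by 0.54 (SE 0.16, edgeR adjusted p = 0.0339).

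Cdkn1b (ENSMUSG00000003031), the gene for p27, was the sole gene of the set that rose in DN1-DN3 cells labelled KO, from 65.3 and 63.8 CPM to 112 and 81.9 CPM (log2 difference 0.58, SE 0.14, edgeR adjusted p = 0.0132). The call was lost in 4 of 12 alternatives, among them the fit of the 4 DN1-DN3 libraries alone (adjusted p = 0.0512) and the fits without KO replicate 1, WT replicate 1 or WT replicate 2 (0.0902, 0.0997 and 0.0635). It also rose in thymic γδ T cells, from 102 CPM in both libraries labelled WT to 135 and 128 CPM (log2 difference 0.48, SE 0.14, edgeR adjusted p = 0.0134), a call lost in 3 of the 4 fits that left out 1 library. Splenic libraries overlapped between 154 and 198 CPM (log2 difference 0.04, SE 0.14, edgeR adjusted p = 0.818).

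Among the libraries labelled WT the genes also differed between compartments. From DN1-DN3 to thymic γδ T cells 5 of 10 genes were higher and 2 lower, where 47.2% of all genes were called (24.4% higher and 22.9% lower), with Cdkn2d higher by 1.35 (SE 0.11, edgeR adjusted p = 1.27e-05), Cdkn1b by 0.68 and Bbc3 by 0.67 (edgeR adjusted p = 0.00237 and 0.00601). Phlda3 was lower there, at −0.80 (SE 0.21, edgeR adjusted p = 0.0111). From thymic to splenic γδ T cells 3 were higher and 2 lower, where 48.8% were called (23% higher and 25.8% lower), with Bbc3 higher by 1.01 (edgeR adjusted p = 0.000535) and Cdkn1b by 0.89 (edgeR adjusted p = 0.000472), and Cdkn2c lower, at −1.81 (SE 0.11, edgeR adjusted p = 2.41e-06).

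The difference between labels itself differed between spleen and thymic γδ T cells for 5 of the 10 genes, 3 of which are in the CDK inhibitor family, where 29.6% of all genes were called (13.7% higher and 15.9% lower). Between DN1-DN3 and thymic γδ T cells it differed for 5 of 10, where 21.9% were called (13% higher and 8.83% lower), and both comparisons share the thymic libraries.

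**Figure D2:**
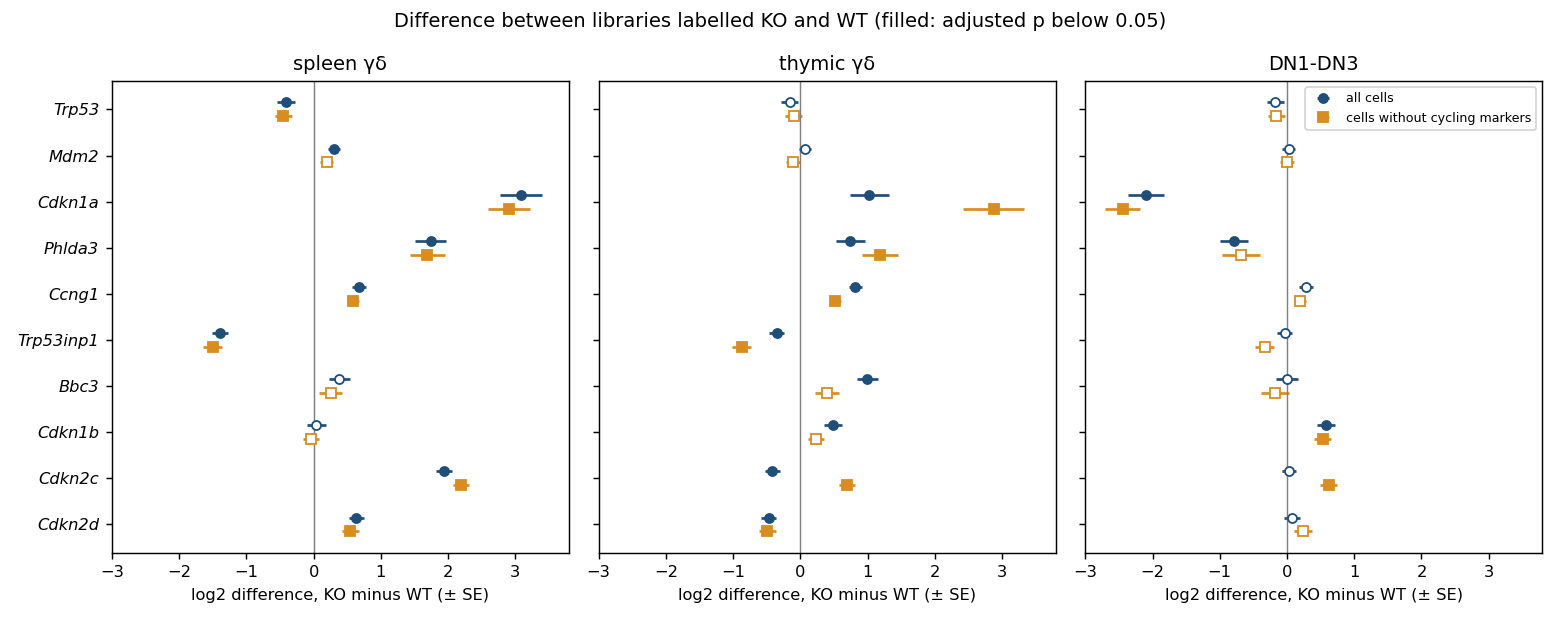
Horizontal axes give the log2 difference between libraries labelled KO and WT with its standard error, for all cells (blue circles) and for cells without a UMI of 10 cycling markers (orange squares), in 3 panels for the 3 compartments; filled symbols had an adjusted p below 0.05. Cdkn2c of thymic γδ T cells lies at −0.42 for all cells and at 0.70 for cells without cycling markers.

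Because CDK inhibitors and dividing cells are linked, cells were also compared within each library by 10 cycling markers such as Mki67 and Top2a. Cells with at least 2 marker UMIs made up 32.5% and 36.9% of thymic γδ T cells labelled WT and 15.3% and 12.8% of those labelled KO, 51.3% and 47.6% against 35.4% and 41.2% of DN1-DN3 cells, and 3.08% and 2.16% against 8.62% and 7.47% of splenic cells. In spleen this order goes against the summed marker CPM, which was 84.8 to 130 labelled WT and 72.4 to 96.9 labelled KO. There 0 of 10 markers were higher and 6 lower (median log2 difference −0.97), beside 28.6% higher and 26.1% lower of all genes. No order is therefore read from the shares in spleen. These shares come from cells that were not thinned, and the median depth differed by label, at 6850 to 6853 UMIs labelled WT and 5665 to 5742 labelled KO in thymic γδ T cells. Over 12 libraries, Cdkn2c, Cdkn2d and Trp53 were higher in cycling cells than in cells with no marker UMI, and Trp53inp1, Bbc3, Ccng1, Cdkn1b and Mdm2 were lower, 8 of 10 genes where 57.2% of 12373 genes tested were called (25% higher and 32.1% lower). The call of Mdm2 (−0.12) was lost in 4 of 5 alternatives, at 1 marker UMI and in each compartment alone (adjusted p of 0.0624 to 0.984). Phlda3 had 0.41 (SE 0.18, edgeR adjusted p = 0.0676) and passed in 3 of 5 alternatives, at 1 and at 3 marker UMIs and in DN1-DN3 alone (adjusted p of 0.0165 to 0.0395). Cdkn2c had the largest difference, at 1.21 (SE 0.22, edgeR adjusted p = 0.000507), with 65.6 and 65.3 CPM in cycling and 17.6 and 16.9 CPM in other thymic γδ T cells labelled WT. Bbc3 was lower, at −0.82 (SE 0.17, edgeR adjusted p = 0.00137) as was Trp53inp1, at −0.71 (SE 0.13, edgeR adjusted p = 0.000387). Cdkn1a did not pass over the 12 libraries (0.18, SE 0.39, edgeR adjusted p = 0.720), but within the 4 DN1-DN3 libraries it was lower in cycling cells, at −1.08 (SE 0.16, edgeR adjusted p = 0.00101). The other compartments had the opposite sign without passing, 1.17 in thymic γδ T cells (SE 0.59, edgeR adjusted p = 0.166) and 1.21 in spleen (SE 0.35, edgeR adjusted p = 0.201). Thymic γδ T cells labelled WT had 2.91 ± 0.962 CPM of Cdkn1a in cycling cells and 0.452 ± 0.175 CPM in the others (SD, n = 2). The latter value rests on few UMIs, and cells without a marker UMI had more Cdkn1a when labelled KO, as given below. In the 4 splenic libraries alone 0 of 10 genes passed, where edgeR called 0.973% of all genes. There 1 of 10 had an unadjusted p below 0.05, but the share of all genes under that threshold was not taken, so nothing is read from it.

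Some of the differences between labels changed when cells with a cycling marker were left out. These cells, with at least 1 marker UMI without thinning, were 74.0% and 71.5% of DN1-DN3 cells labelled WT and 63.6% and 67.4% labelled KO. The shares were 54.4% and 58.9% against 43.0% and 39.8% in thymic γδ T cells, and 11.5% and 9.09% against 27.4% and 26.1% in spleen. With at least 3 marker UMIs they were 24.2% and 28.6% against 7.02% and 5.31% in thymic γδ T cells. In spleen those were 1.61% and 1.05% against 3.05% and 2.32%. Many of the cells left out thus carried fewer than 3 marker UMIs. Whether they were dividing was not tested, and they may differ in kind between the labels. In thymic γδ T cells 4 genes rose and 2 fell, where 43.8% of all 13745 genes were called (22.9% higher and 20.9% lower). Cdkn2c reversed there: without cycling markers it stood at 17.6 and 16.9 CPM labelled WT and at 29.6 and 22.6 CPM labelled KO (log2 difference 0.70, SE 0.12, edgeR adjusted p = 0.000630). Cdkn1a stood at 0.329 and 0.576 CPM labelled WT, from 6 and 11 UMIs, and at 2.72 and 3.51 CPM labelled KO, from 59 and 88 UMIs. Its log2 difference of 2.88 (SE 0.45, edgeR adjusted p = 0.000493) compares with 1.03 over all thymic γδ T cells. Trp53inp1 stood at 182 and 185 CPM labelled WT and at 93.0 and 93.6 CPM labelled KO (log2 difference −0.87, SE 0.14, edgeR adjusted p = 0.000427), against −0.35 over all cells, and was called in all 5 alternatives. Cdkn1b and Bbc3 no longer passed there (0.23 and 0.39, edgeR adjusted p = 0.150 and 0.0888).

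In spleen without cycling markers 5 genes rose and 2 fell, where 54.4% of all genes were called (26.9% higher and 27.5% lower), and Mdm2 was the one gene of the 8 called in all cells that did not pass (0.19, SE 0.10, edgeR adjusted p = 0.126). In DN1-DN3 cells 2 rose and 1 fell, where 23.5% were called (15.4% higher and 8.1% lower). One of the rises was Cdkn1b (0.53, SE 0.12, edgeR adjusted p = 0.0105), whose call was lost in 3 of 5 alternatives, without KO replicate 1, WT replicate 1 or WT replicate 2 (adjusted p of 0.0713 to 0.111). Cdkn1a stood there at 67.8 and 79.3 CPM labelled WT and at 9.37 and 16.1 CPM labelled KO (log2 difference −2.45, SE 0.26, edgeR adjusted p = 0.000176). Cdkn2c rose among these DN1-DN3 cells, from 22.4 and 18.3 CPM to 31.0 and 28.3 CPM (0.62, SE 0.13, edgeR adjusted p = 0.00439), so that it was higher with the label KO in all 3 compartments once cells with cycling markers were left out. Phlda3 had −0.69 (SE 0.28) and did not pass (edgeR adjusted p = 0.106).

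DN cells with at least 2 UMIs of Ptcra came to 1607 and 2026 per library with the label WT and to 1048 and 2268 with the label KO, of 6990 to 7557 cells per library, without thinning. Cdkn1a was higher in them than in the other DN cells of the same library, whatever the label. With the label WT it stood at 64.3 and 61.6 CPM in Ptcra cells and 28.3 and 32.3 CPM in the others (log2 difference 1.09, SE 0.08, edgeR adjusted p = 9.09e-05). With the label KO it stood at 22.3 and 18.8 CPM against 5.21 and 4.84 CPM (2.00, SE 0.11, edgeR adjusted p = 2.19e-06). With the label WT 2 genes were higher and 0 lower in Ptcra cells, where 7.35% of genes were called (2.4% higher and 4.95% lower), the other being Trp53inp1 (0.38, SE 0.05, edgeR adjusted p = 0.00281). With the label KO, where 34.8% were called (14.8% higher and 20% lower), Cdkn1a and Trp53inp1 were higher (0.48 for Trp53inp1, edgeR adjusted p = 0.000157) and Cdkn2d and Ccng1 lower (−0.36 and −0.41, edgeR adjusted p = 0.00924 and 0.0310). The last pair did not pass by DESeq2 (adjusted p = 0.0625 and 0.0818).

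Within the Ptcra cells the libraries labelled KO again had less Cdkn1a, at 22.3 and 18.8 CPM against 64.3 and 61.6 CPM (log2 difference −1.62, SE 0.10, edgeR adjusted p = 9.21e-08), and more Cdkn1b, at 104 and 85.8 CPM against 67.6 and 66.0 CPM (0.50, SE 0.10, edgeR adjusted p = 0.00286). These were the 2 of 10 genes called, where 17.1% of 12337 genes were (10.5% higher and 6.55% lower). Bbc3 had −0.61 (SE 0.20, edgeR adjusted p = 0.0557) and passed in 7 of 11 alternatives, which made 3 genes in 6 of them (9.82% to 18% of all genes called) and 4 with the pool as a block (32.6%). The effect on Cdkn1a in Ptcra cells was smaller in size than in the other DN cells by 0.91 (SE 0.14, edgeR adjusted p = 0.00626), and that on Cdkn2d differed by −0.47 (SE 0.11, edgeR adjusted p = 0.0370), 2 of 10 genes where 9.07% of genes were called (3.64% higher and 5.42% lower). The Cdkn2d difference did not pass by DESeq2 (adjusted p = 0.219). With the pool as a replicate block, where 32.6% of all genes were called, 4 genes were called within the Ptcra cells, Bbc3 (−0.62, adjusted p = 0.00588) and Cdkn2d (−0.24, adjusted p = 0.0160) in addition, both lower with the label KO. Among the Ptcra cells without cycling markers, a comparison added after the data were seen, Cdkn1b did not pass (0.38, edgeR adjusted p = 0.0776) and Cdkn2c was higher (0.77, edgeR adjusted p = 0.00484).

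**Figure D3:**
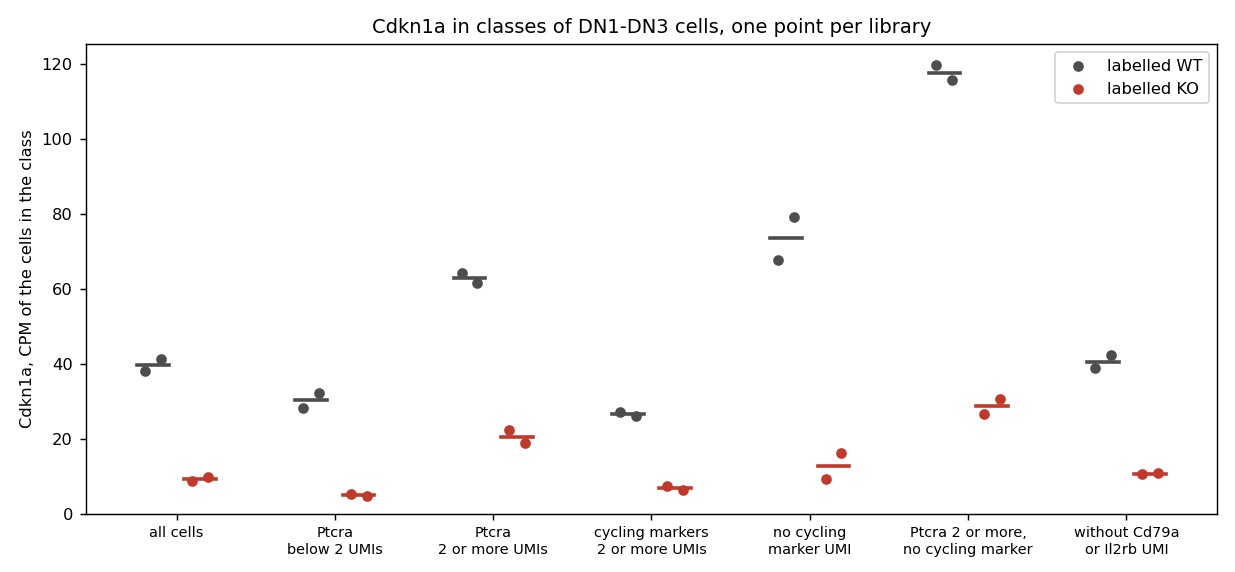
The vertical axis gives Cdkn1a in CPM of the cells in a class, from 0, for 7 classes of DN1-DN3 cells on the horizontal axis; points are libraries, bars are means of 2 libraries, grey is labelled WT and red labelled KO. In Ptcra cells without a cycling marker the libraries labelled WT reached 120 and 116 CPM and those labelled KO 26.7 and 30.7 CPM, and no class has overlapping groups.

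The smaller amount of Cdkn1a with the label KO was thus seen in each class of DN cells examined. Among Ptcra cells without a cycling marker UMI it stood at 120 and 116 CPM labelled WT and 26.7 and 30.7 CPM labelled KO, from 412 and 560 and from 323 and 730 cells. Without the cells that carried a UMI of Cd79a or Il2rb, which were more frequent with the label KO, it stood at 38.8 and 42.4 CPM against 10.5 and 10.8 CPM (log2 difference −1.94, edgeR adjusted p = 0.000965). In cycling DN cells the values were 27.3 and 26.0 CPM labelled WT and 7.31 and 6.39 CPM labelled KO.

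Within libraries, cells with a Cdkn1a UMI were compared with cells without one after thinning each cell to 2000 UMIs. This split used Cdkn1a, so its own level is no result. The Cdkn1a-positive cells numbered 577 and 651 in DN1-DN3 cells labelled WT and 107 and 139 labelled KO, but only 10 and 16 in thymic γδ T cells labelled WT and 11 and 15 in spleen labelled WT. Of the other 9 genes, Phlda3, Bbc3, Ccng1 and Trp53inp1 were higher in Cdkn1a-positive cells and 0 were lower, where 8.95% of 10610 genes were called (2.17% higher and 6.79% lower). The log2 difference was 2.20 for Phlda3 (SE 0.31, edgeR adjusted p = 1.82e-07), 1.27 for Bbc3 (SE 0.20, edgeR adjusted p = 1.45e-07), 0.74 for Ccng1 (SE 0.14, edgeR adjusted p = 9.05e-06) and 0.54 for Trp53inp1 (SE 0.12, edgeR adjusted p = 0.000452). These are 4 of the 5 other p53 targets of the set. The Cdkn1a-positive cells also differed in kind: 0 of 10 cycling markers were higher and 8 lower (median −0.95), 4 of 6 DN markers tested were higher and 0 lower (median 0.66), and 0 of 4 αβ T cell markers tested were higher and 3 lower (median −0.80). The part of this in the differences was not tested, and Bbc3, Ccng1 and Trp53inp1 were lower in cycling cells, as given above. The fifth, Mdm2, had 0.29 (SE 0.12, edgeR adjusted p = 0.122), and Trp53 and the 3 CDK inhibitors lay between −0.18 and 0.10 without a call.

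The compartments did not share all of these calls. In DN1-DN3 libraries alone Trp53inp1 had 0.73 and Bbc3 0.93 and passed (edgeR adjusted p = 3.63e-10 and 0.0323), while Phlda3 (1.02) and Ccng1 (0.37) did not (edgeR adjusted p = 0.0632 and 0.125). In thymic γδ T libraries alone Bbc3 (1.80) and Trp53inp1 (0.13) did not pass (edgeR adjusted p = 0.0911 and 0.942). In splenic libraries alone Phlda3 reached 3.61 and in thymic γδ T libraries alone 3.22, from few cells (edgeR adjusted p = 1.83e-12 and 0.000819). Trp53inp1 had 0.06 in splenic libraries alone and did not pass (edgeR adjusted p = 0.994). Without thinning, Cdkn1a-positive cells were deeper, with a median of up to 21359 UMIs in thymic γδ T cells labelled WT against 6808 in the negative cells of that library, and only Phlda3 and Bbc3 passed.

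**Figure D4:**
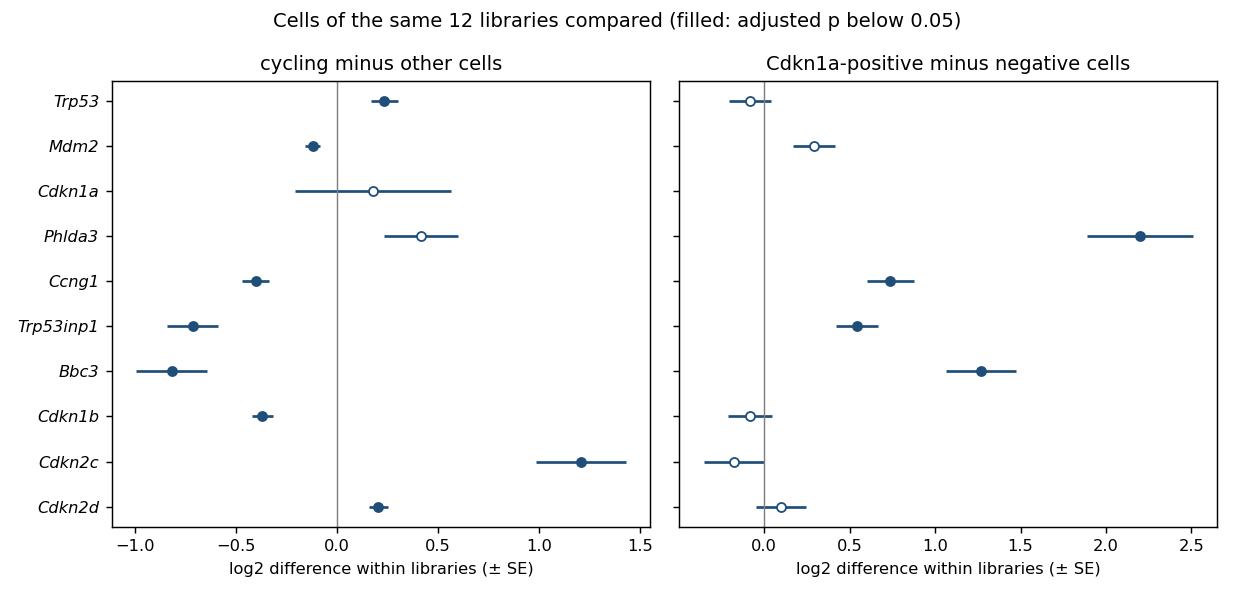
Horizontal axes give log2 differences with their standard errors between cells of the same 12 libraries, on the left for cells with at least 2 UMIs of cycling markers minus cells with none, on the right for cells with a Cdkn1a UMI minus cells without one after thinning; filled circles had an adjusted p below 0.05. Phlda3 lies at 2.20 and Bbc3 at 1.27 on the right, and Cdkn2c at 1.21 on the left.

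In spleen and thymic γδ T cells the mix of cells differed between the labels. Cells whose leading Trgv gene was Trgv6 made up 2.40% and 2.05% of splenic cells labelled WT and 43.8% and 39.5% of those labelled KO, without thinning. A cell without a Trgv UMI could not be called, so these shares are of detection and may lie below the true part of such cells. Restricted to these cells, 188 and 229 of them labelled WT, 1 of 10 genes was called in spleen (Trp53inp1, −0.87, edgeR adjusted p = 0.00950), where 12% of all genes were. With so few cells labelled WT, a lost call does not show that a difference was absent. Cdkn1a stood at 7.66 and 2.13 CPM labelled WT and 10.5 and 6.935 CPM labelled KO and overlapped, and Cdkn2c at 35.8 and 26.3 CPM against 42.9 and 45.3 CPM (edgeR adjusted p = 0.403 for Cdkn1a and 0.116 for Cdkn2c). Phlda3 stood there at 5.11 and 4.27 CPM labelled WT, from 6 UMIs each, and at 6.35 and 4.06 CPM labelled KO, and overlapped, and its log2 difference was 0.11 (SE 0.51) against 1.74 in all splenic cells. Ccng1 stood at 63.9 and 56.9 CPM against 69.9 and 65.7 CPM, without overlap, and its log2 difference was 0.13 (SE 0.15) against 0.68. Among thymic γδ T cells, with 41 and 57 such cells labelled WT, 0 of 10 genes were called by edgeR, where 15.9% of all genes were. An unadjusted p below 0.05 was found for 3 of 10. The share of all genes under that unadjusted threshold was not taken, so no result is read from this count. The ratios of KO to WT means were 1.69 for Ccng1, 0.658 for Cdkn2d and 0.735 for Trp53inp1. These ratios rest on the same few cells labelled WT, so that the lost calls do not show whether these differences were absent. Phlda3 and Bbc3 had 1 to 4 UMIs in each of these WT libraries, too few to compare. Trgv genes resemble one another in sequence, so that these calls are uncertain to that extent.

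Other genes of the p53 network were followed through lists chosen by function, with earlier results of these data known. Of 43 other p53 targets, 40 were tested, and 16 rose and 6 fell in spleen, 13 rose and 7 fell in thymic γδ T cells, and 12 rose and 5 fell in DN1-DN3 cells. Their median log2 differences were 0.23, 0.115 and 0.06. Over all genes tested 28.6%, 26.1% and 15.2% rose and 26.1%, 23.7% and 7.73% fell in the same order, and the list was not tested as a set. Pmaip1, the gene for the pro-apoptotic protein NOXA, rose from 3.28 ± 0.267 to 26.4 ± 2.99 CPM (SD, n = 2) in spleen (log2 difference 3.11, SE 0.15, edgeR adjusted p = 1.97e-07) and from 1.49 ± 0.00996 to 9.04 ± 0.157 CPM in thymic γδ T cells (2.73, SE 0.15, edgeR adjusted p = 2.50e-06). Plk3, a stress-induced kinase gene, rose in all 3 compartments, by 3.43 in spleen, 2.67 in thymic γδ T cells and 2.68 in DN1-DN3 cells (edgeR adjusted p = 9.41e-05, 0.000438 and 0.00258). The DN1-DN3 libraries labelled KO lay far apart, with 8.99 ± 6.38 CPM against 1.38 ± 0.475 CPM labelled WT (SD, n = 2).

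Several targets fell instead. Ephx1, an epoxide hydrolase gene, fell from 24.2 ± 1.42 to 2.63 ± 0.386 CPM (SD, n = 2) in spleen (log2 difference −3.11, SE 0.32, edgeR adjusted p = 2.89e-05), and Ddb2, of nucleotide excision repair, fell by 1.01 there (edgeR adjusted p = 8.23e-06). Fas, the death receptor gene, had −1.25 in spleen and 1.14 in DN1-DN3 cells (edgeR adjusted p = 0.00204 and 0.0101). Ckap2, a spindle gene, fell by 1.79 in thymic γδ T cells and by 0.61 in DN1-DN3 cells (edgeR adjusted p = 2.35e-05 and 0.0238), where the summed cycling markers were also lower with the label KO (349 to 431 against 1523 to 1882 CPM in thymic γδ T cells, and 1024 to 1225 against 1645 to 1663 CPM in DN1-DN3 cells). In the Cdkn1a-positive cells 3 of 34 other p53 targets tested were higher and 0 lower, beside 2.17% higher and 6.79% lower of all genes, namely Zmat3 (1.18), Trp53i11 (0.57) and Bax (0.52), with edgeR adjusted p of 7.35e-06, 0.000234 and 0.000310. These 3 were named after their values were seen.

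**Figure D5:**
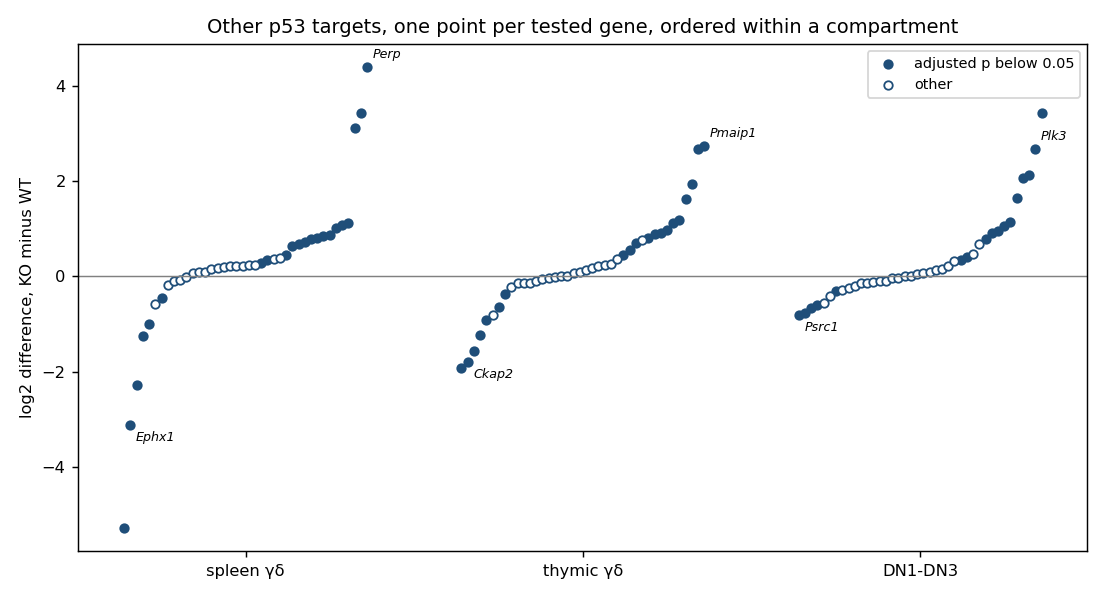
Each point is 1 of the 40 tested genes of the list of other p53 targets, ordered by its log2 difference (KO minus WT, vertical axis) within each of the 3 compartments; filled points had an adjusted p below 0.05. Perp and Ephx1 mark the spread in spleen, at 4.39 and −3.11.

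Of 22 regulators of p53, 21 were tested, and 6 rose and 6 fell in spleen, 4 rose and 7 fell in thymic γδ T cells, and 3 rose and 1 fell in DN1-DN3 cells, with medians of −0.10, 0.03 and −0.08. These counts stand beside 28.6% higher and 26.1% lower of all genes in spleen, 26.1% and 23.7% in thymic γδ T cells, and 15.2% and 7.73% in DN1-DN3 cells. Hipk2, a kinase gene whose product phosphorylates p53, fell in spleen from 76.6 ± 0.320 to 11.3 ± 1.80 CPM (SD, n = 2, log2 difference −2.67, SE 0.14, edgeR adjusted p = 2.94e-07). In thymic γδ T cells it fell by 0.97 (edgeR adjusted p = 0.000168), but among Ptcra cells it was higher with the label KO (0.37, edgeR adjusted p = 0.0177). Ppp1r13b, of the same list, had −0.75 in spleen and 0.58 in DN1-DN3 cells (edgeR adjusted p = 0.000653 and 0.00892). Cdkn2a, which encodes p16INK4a and the MDM2 inhibitor ARF, rose in spleen from 1.16 ± 0.476 to 10.9 ± 2.27 CPM (3.36, SE 0.29, edgeR adjusted p = 6.39e-06), and counts of its 2 products cannot be told apart here. Chek1 and Chek2, the checkpoint kinase genes, fell in thymic γδ T cells by 2.20 and 1.25 (edgeR adjusted p = 0.000175 and 0.00101), where all 10 cycling markers were lower (median −1.96). Without cells that carried a cycling marker they had −1.28 and −1.01 (edgeR adjusted p = 0.000278 and 0.00505).

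Of 20 genes for G1 cyclins, CDKs and other CDK inhibitors, all 20 were tested, and 7 rose and 6 fell in spleen, 4 rose and 13 fell in thymic γδ T cells, and 4 rose and 6 fell in DN1-DN3 cells, with medians of 0.06, −1.12 and −0.35, beside the same shares of all genes. In thymic γδ T cells all 10 cycling markers were lower too (median −1.96), and without cells that carried one, 4 genes of the list rose and 9 fell, with a median of −0.44. Rbl2, which encodes the pocket protein p130, rose in all 3 compartments, by 1.63, 1.84 and 0.88 in the same order (edgeR adjusted p = 0.000368, 0.000226 and 0.0291), and in DN1-DN3 cells it had 39.2 ± 4.95 CPM labelled WT and 73.3 ± 37.4 CPM labelled KO (SD, n = 2). Ccnd3, for cyclin D3, fell in spleen from 823 ± 85.0 to 316 ± 5.12 CPM (SD, n = 2; −1.29, SE 0.11, edgeR adjusted p = 8.35e-06). Cdk6, the kinase that INK4 inhibitors bind, fell in DN1-DN3 cells from 1336 ± 180 to 786 ± 4.92 CPM (−0.76, SE 0.11, edgeR adjusted p = 0.00101). Among Ptcra cells Ccne2 and Cdk2 fell by 0.65 and 0.52 (edgeR adjusted p = 0.000546 and 0.0110), and 0 of the 17 tested genes of this list rose and 6 fell (median −0.34), beside 10.5% higher and 6.55% lower of all genes. In the same Ptcra cells 0 of 10 cycling markers were higher and 8 were lower (median −0.45), and their part in this was not tested.

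Over the 12 libraries, which fall into 6 groups, the genes whose log2(CPM + 1) followed Cdkn1a most closely were Bloc1s2, Tomm5 and Ddx20 (Pearson r = 0.975, 0.975 and 0.967 among 6727 genes with at least 20 CPM). For Cdkn2c they were Echs1, Timm17b and Pgrmc1 (r = 0.959, 0.953 and 0.953). For Trp53inp1 they were Fntb, Aff3 and Vav3, with r between 0.984 and 0.989. With so many genes and 6 groups such values describe a shared order of the groups, and libraries of a pool share a droplet run.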

How the data were processed

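Per the submitters' processing notes, the authors made UMI counts per gene and cell with Cell Ranger 8.0.1 on GRCm39. These counts were deposited raw, and cells had been assigned to a genotype by hashtag (hashsolo) before deposit, which removes doublets of both genotypes. No further doublet caller was run. The genotype of a library comes from the hashtag labels. Barcodes under 500 UMIs or 200 genes, or above 20% mitochondrial counts, were dropped (96911 of 97404 remained, 12 libraries of 42091895 to 71663962 UMIs each). The own hashtag led in 99.6% to 100% of cells, which shows only the split.

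UMIs were summed per library, or per library and class of cells, after 9538 ribosomal, mitochondrial and Gm genes were left out by name, and compared with edgeR 4.0.16 (R 4.3.3; quasi-likelihood F test, robust, TMM, filterByExpr, two-sided). P values were adjusted by Benjamini-Hochberg over all genes tested, with a threshold of 0.05. Compartments were contrasts in 1 fit of 12 libraries, not a test over single cells, since cells are not replicates. Classes within a library were compared with the library as a block. Shares of cells with a UMI of the 10 genes, and the Cdkn1a-positive class, were taken after thinning to 2000 UMIs. The cycling, Ptcra, Trgv6, Cd79a and Il2rb classes used cells as deposited. A CPM is a gene's UMIs per 1e+06 UMIs of the library or class. Alternatives were DESeq2 1.42.0, RLE scaling, no low-count filter, all genes or barcodes kept, other thresholds and thinning, 4 libraries alone, each library left out, the pool as a block and other mixes of cells. The fits without a filter and on single compartments for Ptcra, cycling and Cdkn1a classes, and those on cells without cycling markers by DESeq2 or without a library, were added after the data were seen. On counts simulated for DN1-DN3 (14921 genes), 92 of 100 genes changed by 1 and 100 of 100 changed by 2 on the log2 scale were recovered, with 15 false calls. The simulated libraries all shared a single mean profile, and only a small part of the genes, none of low level, was changed. These figures cannot be carried over to low counts or to comparisons where many genes were called. Python 3.11.15, numpy 2.4.6, scipy 1.17.1, pandas 2.3.3 and matplotlib 3.10.9 did the rest.

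The pool number marks a shared droplet run and so pairs the libraries. Deviations of same-pool libraries from their group means correlated at 0.29 in spleen, 0.0629 in thymic γδ T cells and 0.176 in DN1-DN3 cells. Other than the 10 genes, genes are named by rule: per list and comparison up to 3 called in each direction with the largest log2 difference and a mean of at least 5 CPM, of which the most relevant are printed. The 10 genes and the lists were chosen with earlier results of these data known. Promoter sequences are RefSeq's (GRCm38.p6), and protein sequences were not used here.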

Additional observations from a re-analysis of the deposited data

Results flagged for a closer look

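Whether the difference between labels itself differed between compartments or classes of cells was tested by interaction with edgeR. The 3 such tests called 29.6%, 21.9% and 9.07% of all genes, in the order below. Spleen minus thymic γδ T cells gave, on the log2 scale, 1.00 for Phlda3 (adjusted p = 0.0357), −1.05 for Trp53inp1, 2.36 for Cdkn2c, 1.11 for Cdkn2d and 2.06 for Cdkn1a, 5 of 10 genes. Among cells without cycling markers the differences between labels in spleen and thymic γδ T cells were 2.91 and 2.88 for Cdkn1a. They were 2.19 and 0.70 for Cdkn2c, 0.55 and −0.49 for Cdkn2d, 1.69 and 1.19 for Phlda3, and −1.50 and −0.87 for Trp53inp1. The interaction was not tested in those cells. DN1-DN3 minus thymic γδ T cells gave −1.53 for Phlda3 (adjusted p = 0.00636), −0.996 for Bbc3, 0.54 for Cdkn2d, −0.53 for Ccng1 (adjusted p = 0.0264) and −3.13 for Cdkn1a, 5 of 10 genes. Both comparisons share the thymic γδ T libraries. Cells with at least 2 Ptcra UMIs minus other DN cells gave −0.47 for Cdkn2d and 0.91 for Cdkn1a, 2 of 10 genes. With the pool as a replicate block, Cdkn1b and Bbc3 also passed between spleen and thymic γδ T cells (adjusted p = 0.0393 and 0.0445) and Cdkn2c between DN1-DN3 and thymic γδ T cells (0.0499).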

How the results depend on the processing

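With 2 libraries a group, each call rests on little spread, and Cdkn1a in γδ T cells labelled WT on few UMIs. The larger moves in counts of called genes were as follows, with the share of all genes called in the same fit in brackets. Among Cdkn1a-positive cells 4 (8.95%) became 2 without thinning (3.66%), and also in DN1-DN3 (14.1%) or thymic γδ T libraries alone (0.531%). For cycling cells 8 (57.2%) became 0 in spleen alone (0.973%) by edgeR. With the pool as a replicate block, 4 genes were called in Ptcra cells (32.6%), against 2 without the block (17.1%). Beside the calls given above, the block changed no other call between labels where it was fitted. It was not fitted for cells without cycling markers, Trgv6 cells or the difference of Ptcra classes. By DESeq2, 1 gene was called for the difference of Ptcra classes (6.12%) and 2 for Ptcra cells labelled KO (19%). DN1-DN3 gave 1 call with its 4 libraries alone (14.8%) and, without each library in turn, 1 to 4 (10.9% to 12.7% where 1 was called, 32.7% for 4, without KO replicate 2). The same range was 2 to 5 for DN1-DN3 without cycling markers (12% to 25.8%) and 3 to 6 for thymic γδ T cells (35.5% to 41.4%). Trgv6 cells gave 1 call in spleen (12%) and 0 in thymic γδ T cells (15.9%) by edgeR. Among smaller moves, 8 calls in spleen became 6 without WT replicate 2 (43.9%) and 9 with the block (57.9%) or with ribosomal, Gm and mitochondrial genes kept (52.2%), 8 for cycling cells became 9 at 3 marker UMIs (60.1%) or in DN1-DN3 alone (61.3%) and 7 in thymic γδ T cells alone (38.5%), 4 for Ptcra cells labelled KO became 6 without the filter (25.6%), and 4 among Cdkn1a-positive cells became 3 in spleen alone (0.397%). The cause was not tested.

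The sign of uncalled log2 differences turned as follows. Among Cdkn1a-positive cells without thinning, Cdkn2c had 0.38, Cdkn2d −0.134 and Trp53 0.0117; in thymic γδ T libraries alone Cdkn2c had 0.94 and Cdkn2d −0.0721; in DN1-DN3 alone Cdkn1b had 0.19, and in spleen alone Trp53 had 0.19. Cdkn1a in cycling DN1-DN3 cells had −1.08. In Ptcra cells Cdkn2c had −0.0036 by DESeq2, −0.0438 at 3 Ptcra UMIs, −0.0037 without the filter and −0.0016 with the block, and −0.0629 to 0.0785 without each library. Mdm2 had 0.0334 at 1 and 0.0384 at 3 Ptcra UMIs and −0.0816 to 0.0875 without each library, Trp53 had −0.151 to 0.0269, and Trp53inp1 −0.13 without cycling markers. In DN1-DN3 cells Bbc3 had 0.0053 without the filter and 0.0181 with 4 libraries. Without each library, DN1-DN3 ranges were −0.18 to 0.12 for Bbc3, −0.10 to 0.11 for Cdkn2c, −0.12 to 0.25 for Cdkn2d, −0.0771 to 0.0739 for Mdm2 and −0.154 to 0.0582 for Trp53inp1, and without cycling markers −0.122 to 0.0515 for Mdm2. Splenic Cdkn1b had −0.39 in Trgv6 cells, −0.0027 with 4 libraries and −0.11 to 0.17 without each library (−0.18 to 0.0925 without cycling markers). In Trgv6 cells Mdm2 had −0.0349 in spleen, a called gene otherwise, and Trp53 0.0404 in thymic γδ T cells. Cdkn2d between splenic and thymic γδ T cells labelled WT had 0.00062 by DESeq2 and 0.0035 with RLE, and the Trp53 difference of DN1-DN3 and thymic effects had 0.0022 by DESeq2, 0.0047 with RLE and 0.0014 without the filter.

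Differences in the share of cells with a UMI (percentage points, KO minus WT) turned sign without thinning for Cdkn1b in spleen (4.87) and thymic γδ T cells (−1.41) and, in DN1-DN3 cells, for Cdkn2c (−0.94), Cdkn2d (−1.29), Mdm2 (−3.47) and Bbc3 (−0.80, and −0.17 at 1000 UMIs). Within Ptcra cells Cdkn2c turned from 0.88 to −0.0914 and Mdm2 from 0.65 to −2.40.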
